A study of Populus ussuriensis with 8 samples.

Results

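The 10 poplar JAZ (TIFY) loci described here are Potri.001G062500, Potri.001G166200, Potri.003G068900, Potri.003G165000, Potri.006G139400, Potri.008G133400, Potri.010G108200, Potri.011G083900, Potri.012G044900 and Potri.015G035800. They were taken as a list of 10 of the 36385 listed genes, for their role as early jasmonate and wound response repressors. The list was chosen with earlier results of these data known. It holds 47 of the 65535 listed transcripts. All 10 genes and all 47 isoforms passed the filter of at least 1 FPKM in at least 2 libraries, as did 24347 of all genes and 47164 of all transcripts. The lowest gene sum of any member in any library was 13.2 FPKM, so no member passed through 1 group alone. The identifiers are paired with no gene name, and the assignment of these loci to the JAZ family was not checked against sequence here. The listed transcripts end within chromosome 17, and no search for further JAZ genes was made. JAZ sums, shares and ranks below cover these 10 loci alone.

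The 8 RNA libraries came from the basal 0.5 cm of cuttings from stems of the poplar Populus ussuriensis. The 4 groups of 2 libraries were cuttings on medium with 1 µM methyl jasmonate (MeJA) taken 1 h after cutting, cuttings with MeJA taken at 0.5 h, cuttings without MeJA taken at 1 h, and cuttings without MeJA taken at 0.5 h. All were segments of 3 cm from plants grown in vitro, for which the labels state an age of 4 weeks in one place and 2 weeks in another. All groups had been cut, so each value comes from wounded tissue, and uncut stems were not analysed here. The labels do not say if the 2 replicates of a group were separate cultures; p-values here reflect the spread among the libraries alone, and that spread may be technical. The identifiers are those of Populus trichocarpa, a related species.

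JAZ proteins hold down jasmonate responses by binding MYC2-type transcription factors and recruiting co-repressors. When a stem or leaf is wounded, jasmonic acid is made and converted to its isoleucine conjugate, which brings JAZ proteins to the F-box receptor COI1. The JAZ proteins are then ubiquitinated and degraded, and the transcription factors are freed. The JAZ genes are among the targets of those factors, so that a response is followed by new repressor, a feedback best known from Arabidopsis. MeJA is taken up by tissue and turned into jasmonic acid. JAZ proteins carry the TIFY and Jas motifs. No individual JAZ number is given to a locus here.

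Total values per library lay between 549538 and 577002 FPKM over the listed transcripts. Depth relative to untreated 0.5 h replicate 1 was estimated at 0.931 to 1. The estimate is the most frequent ratio of values under 1 FPKM in genes with 1 isoform, and no read counts were available. Absolute depth is unknown. No batch is named in the labels, and any batch that held 1 time only cannot be told apart from time after cutting. In whole tissue, a change in RNA per cell and a change in the number of cells that express a gene cannot be told apart. Cell type markers could not be checked without gene names.

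All 10 JAZ genes were higher at 1 h than at 0.5 h after cutting. Summed over the 10 members, JAZ transcripts stood at 4400 and 4875 FPKM in the MeJA libraries of 1 h and at 2832 and 2707 FPKM in those of 0.5 h. Without MeJA the sums were 4703 and 4569 FPKM at 1 h and 2308 and 2593 FPKM at 0.5 h. The members therefore made up 0.782% to 0.861% of each library's total at 1 h and 0.42% to 0.494% at 0.5 h. With 4 libraries at each time, every member was above its highest 0.5 h value in every 1 h library. All 10 passed the test over both treatments (limma, adjusted p over all 24347 genes from 4.8e-07 to 0.0044). Of all tested genes 19.3% were called higher and 40.9% lower in that comparison, and 18.1% were higher at 1 h with no overlap.

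The size of the rise ranged widely among the members. The median log2 change over both treatments was 0.79 for the members and -0.17 for all tested genes, on the log2(FPKM + 1) scale, which understates changes of genes with low values. Relative to the median gene the members moved by 0.54 to 1.86. After quantile normalization, which moved the median gene by 0.12, 9 of 10 members were called higher against 25.0% of all genes. The exception was Potri.001G166200 (log2 change 0.15, limma adjusted p = 0.14). With the libraries centred on their medians, 10 of 10 were called higher against 28.4% of all genes. Over all genes, higher calls were 32.1% of the calls without rescaling, 45.4% with quantile normalization and 52.3% with median centring.

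**Figure D1:**
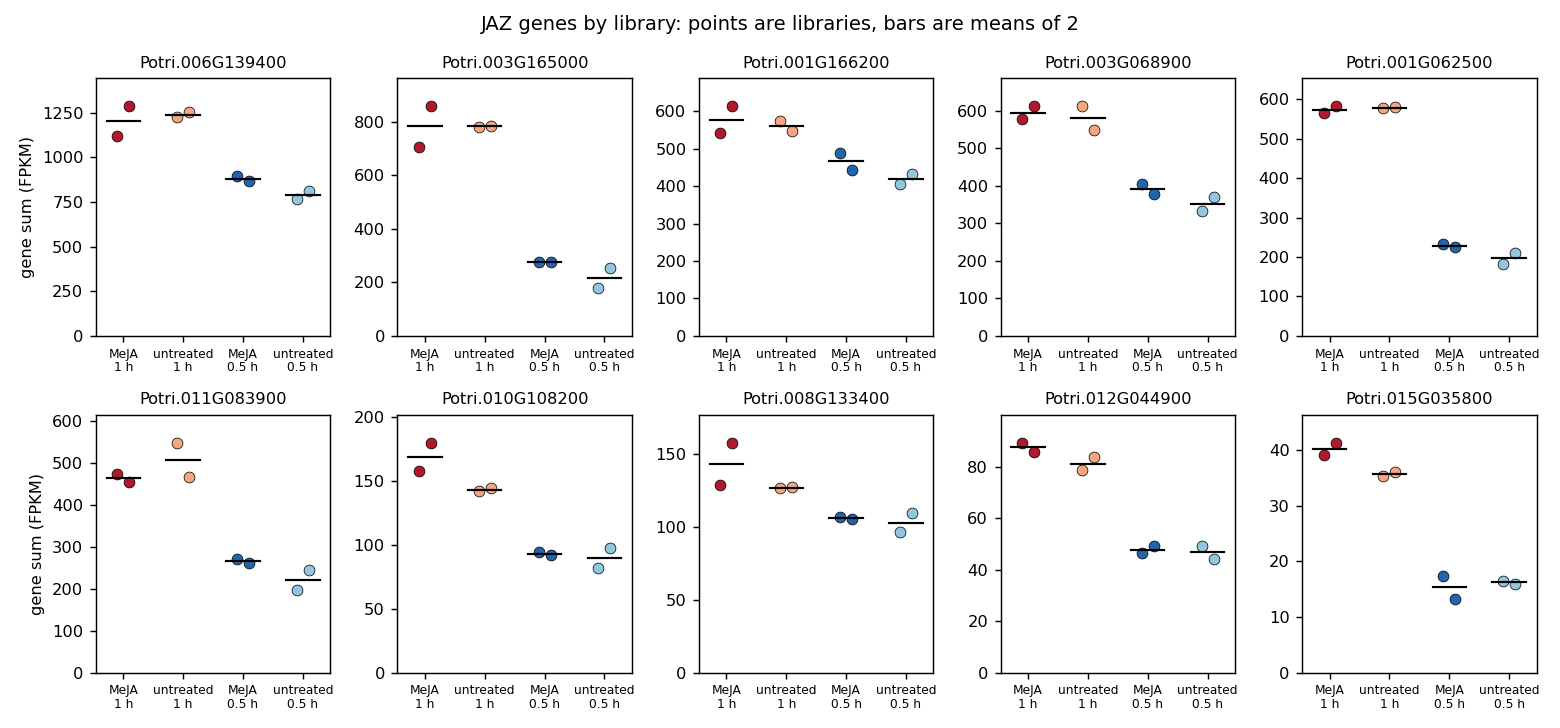
Gene sums of the 10 JAZ loci in FPKM (vertical axes, each from 0) in the 4 groups (horizontal axes); points are the 2 libraries of a group and bars their mean. In every panel the 4 libraries of 1 h lie above the 4 of 0.5 h, and the MeJA and untreated means of the same time differ by less than the means of the 2 times.

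Potri.003G165000 had the largest change of the members. It stood at 708 and 859 FPKM in the MeJA libraries of 1 h and at 275 and 275 FPKM in the MeJA libraries of 0.5 h. Without MeJA it stood at 782 and 783 FPKM at 1 h and at 180 and 253 FPKM at 0.5 h. The 2 untreated libraries of 0.5 h were the lowest and differed from each other by 0.49 on the log2 scale, the widest gap between replicates in any member. The mean was 3.19 times as high at 1 h as at 0.5 h over both treatments (log2 change 1.68 ± 0.13 SE, limma adjusted p = 1.8e-06).

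Potri.001G062500 stood at 564 and 583 FPKM with MeJA and 577 and 580 FPKM without at 1 h. At 0.5 h it stood at 234 and 224 FPKM with MeJA and 182 and 211 FPKM without. Its 4 libraries of 1 h lay close together, at 576 ± 8.2 FPKM (SD, n = 4), against 213 ± 22 FPKM at 0.5 h. It had the smallest adjusted p of the members (log2 change 1.44 ± 0.087 SE, limma adjusted p = 4.8e-07).

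Potri.015G035800, the member with the lowest level, rose by 2.41 times. It stood at 39.1 and 41.4 FPKM with MeJA and 35.4 and 36.1 FPKM without at 1 h, and at 17.4 and 13.2 FPKM with MeJA and 16.5 and 16 FPKM without at 0.5 h. The log2 change was 1.22 ± 0.094 (SE, limma adjusted p = 2.2e-06).

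Potri.011G083900, which has a single listed isoform, had levels of 474 and 453 FPKM with MeJA and 547 and 466 FPKM without at 1 h. At 0.5 h it stood at 270 and 260 FPKM with MeJA and 196 and 245 FPKM without. The mean at 1 h was 2 times that at 0.5 h (log2 change 1.0 ± 0.11 SE, limma adjusted p = 3e-05). With 4 libraries a time the groups were apart, although the untreated replicates differed by 0.23 at 1 h and 0.32 at 0.5 h on the log2 scale.

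Changes of intermediate size were seen in 3 members. Potri.012G044900 stood at 84.3 ± 4.4 FPKM at 1 h and 47.2 ± 2.3 FPKM at 0.5 h (SD, n = 4; log2 change 0.82). Potri.010G108200 stood at 156 ± 17 FPKM at 1 h and 91.5 ± 6.7 FPKM at 0.5 h (log2 change 0.76). Potri.003G068900 stood at 588 ± 31 FPKM at 1 h and 372 ± 29 FPKM at 0.5 h (log2 change 0.66).

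The smallest changes were in 3 further members, 2 of which were among the most abundant. Potri.006G139400, the highest JAZ gene in each of the 4 groups, stood at 1119 and 1288 FPKM with MeJA and 1228 and 1253 FPKM without at 1 h. At 0.5 h it stood at 895 and 866 FPKM with MeJA and 767 and 813 FPKM without, and the time comparison gave 0.55 ± 0.089 on the log2 scale (SE, limma adjusted p = 0.00037). Its mean rose by 1.46 times, which was less than the rise of the summed JAZ level, so its share of that sum was 26.4% ± 0.82 at 1 h and 32% ± 0.82 at 0.5 h (SD, n = 4).

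Potri.001G166200 stood at 541 and 614 FPKM with MeJA and 573 and 547 FPKM without at 1 h, and at 488 and 444 FPKM with MeJA and 405 and 434 FPKM without at 0.5 h. The log2 change was 0.36 ± 0.084 (SE, limma adjusted p = 0.0036). Potri.008G133400 stood at 129 and 158 FPKM with MeJA and 126 and 127 FPKM without at 1 h, and at 107 and 105 FPKM with MeJA and 96.3 and 109 FPKM without at 0.5 h. Its log2 change was 0.36 ± 0.087 (SE, limma adjusted p = 0.0044).

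Within each treatment, with 2 libraries a time, 9 of 10 members were called higher at 1 h. With MeJA 15.2% of all tested genes were called higher and 28.1% lower, and without MeJA 15.4% were called higher and 33.2% lower. The member that missed the threshold with MeJA was Potri.001G166200 (log2 change 0.31, 95% interval 0.05 to 0.56, limma adjusted p = 0.052). Without MeJA it was Potri.008G133400 (log2 change 0.30, 95% interval 0.03 to 0.58, limma adjusted p = 0.064). In both cases the 2 libraries of 1 h were above the 2 of 0.5 h, as they were for all 10 members in each treatment, against 26.2% of all genes with MeJA and 24.8% without. After quantile normalization Potri.001G166200 had a log2 change of 0.14 with MeJA (limma adjusted p = 0.36) and of 0.15 without (limma adjusted p = 0.30, no longer called), against 0.31 and 0.42 as deposited. Leaving out 1 library at a time gave 7 to 10 called members with MeJA and 8 to 10 without, with the lowest count with MeJA reached without MeJA 0.5 h replicate 2 or without MeJA 1 h replicate 2.

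**Figure D2:**
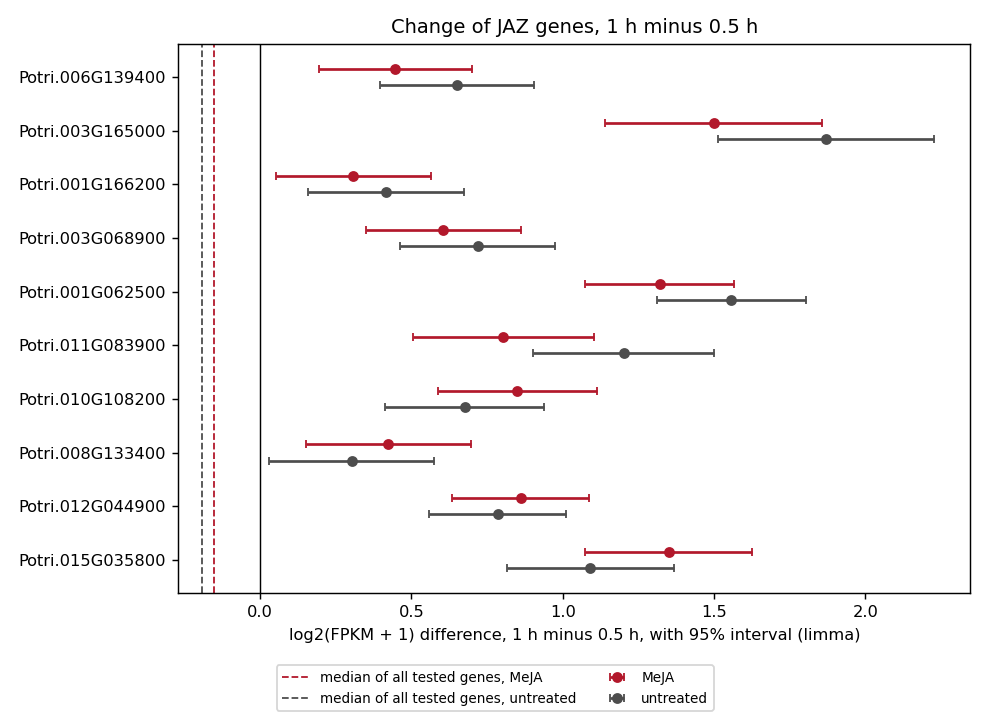
Change of each JAZ locus between 0.5 h and 1 h on the log2(FPKM + 1) scale (horizontal axis, points with 95% limma intervals) in MeJA and untreated cuttings, with the loci ordered by mean level from the top. All 20 points lie above 0 and to the right of the dashed medians of all tested genes, at -0.15 with MeJA and -0.19 without, and Potri.003G165000 lies farthest right in both treatments.

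The order of the JAZ genes by level differed between the times. If the values are FPKM, as taken here, they are scaled to transcript length and levels can be set beside each other. The unit is not named, so the order rests on that reading. At 1 h the order was Potri.006G139400, Potri.003G165000, Potri.003G068900, Potri.001G062500, Potri.001G166200, Potri.011G083900, Potri.010G108200, Potri.008G133400, Potri.012G044900 and Potri.015G035800, by the mean of 4 libraries. Ranges overlapped between the third and the fourth, the fourth and the fifth, the fifth and the sixth, and the seventh and the eighth of these. Potri.003G068900, Potri.001G062500 and Potri.001G166200 thus stood together at 588 ± 31, 576 ± 8.2 and 569 ± 33 FPKM at 1 h (SD, n = 4).

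At 0.5 h those 3 members stood apart, Potri.001G166200 at 443 ± 34 FPKM, Potri.003G068900 at 372 ± 29 FPKM and Potri.001G062500 at 213 ± 22 FPKM (SD, n = 4). Potri.003G165000, next after Potri.006G139400 at 1 h, was at 246 ± 45 FPKM at 0.5 h and overlapped there with Potri.011G083900 at 243 ± 33 FPKM. The share of Potri.003G165000 in the summed JAZ level was 16.9% ± 0.66 at 1 h and 9.36% ± 1.1 at 0.5 h. That of Potri.001G062500 was 12.4% ± 0.4 at 1 h and 8.14% ± 0.18 at 0.5 h, and that of Potri.001G166200 was 12.3% ± 0.26 at 1 h and 17% ± 0.52 at 0.5 h. By mean level over the 8 libraries, the 6 most abundant members ranked above 99.5% to 99.9% of tested genes, and the lowest, Potri.015G035800, above 82.4%.

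Poplar chromosomes carry large blocks that were duplicated in an ancestor of poplars and willows. Of the JAZ loci, 8 lie on chromosomes known to share such blocks (1 with 3, 8 with 10, and 12 with 15). They were set in 4 pairs. Chromosomes 1 and 3 each hold more than 1 member, and shared blocks alone do not say which go together. There Potri.001G062500 was set with Potri.003G165000, and Potri.001G166200 with Potri.003G068900. Ratios for the other matching are not given here. Whether the loci of a pair are each other's closest relatives was not checked against sequence here, and reads shared between near-identical copies were not resolved. In each of the 4 pairs the ratio of the loci differed between the times (exact two-sided permutation test over 8 libraries, p = 0.029, the smallest p that 70 arrangements allow, adjusted p = 0.029 over the 4 pairs). Such a gap was common: the ratio had no overlap between the times in 52.3% of all pairs of tested genes and in 71.1% of the 45 pairs among the JAZ genes. The count of pairs is therefore no result about these 4, and their ratios are given as values.

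The locus on chromosome 8, Potri.008G133400, was 0.864 times as high as its partner Potri.010G108200 at 1 h and 1.14 times as high at 0.5 h. On the log2 scale the ratio ran from -0.30 to -0.17 over the 4 libraries of 1 h and from 0.17 to 0.23 over the 4 of 0.5 h. The higher locus of this pair was thus Potri.010G108200 in each library of 1 h and Potri.008G133400 in each library of 0.5 h.

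Potri.001G166200 was 0.968 times as high as Potri.003G068900 at 1 h, where the log2 ratio ran from -0.10 to 0.0024, and 1.19 times as high at 0.5 h, where it ran from 0.23 to 0.28. Potri.012G044900 was 2.22 times as high as Potri.015G035800 at 1 h, with log2 ratios of 1.03 to 1.19, and 3.03 times as high at 0.5 h, with log2 ratios of 1.36 to 1.82. In this pair the locus on chromosome 12 was the higher in all 8 libraries, and the ratio was smaller at 1 h.

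The pair of Potri.001G062500 and Potri.003G165000 held the members with the largest changes on the log2 scale. Their log2 ratio ran from -0.56 to -0.33 at 1 h and from -0.29 to 0.018 at 0.5 h, the narrowest gap between times of the 4 pairs. The one ratio above 0 came from untreated 0.5 h replicate 1, and without that library the mean difference between the times was -0.18, against -0.25 with all 8 libraries. Without it this pair had an adjusted p of 0.057 (exact permutation test) and 3 of 4 pairs were called, and the same count was reached without MeJA 0.5 h replicate 1. Without MeJA 1 h replicate 2 none of the 4 was called (0 of 4, each with an adjusted p of 0.057 in the exact permutation test). In that test 2 of 4 had an unadjusted p of 0.029. With a library left out the test has fewer arrangements and coarser p-values. The ratios still had no overlap between the times, so these counts say nothing of stability.

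**Figure D3:**
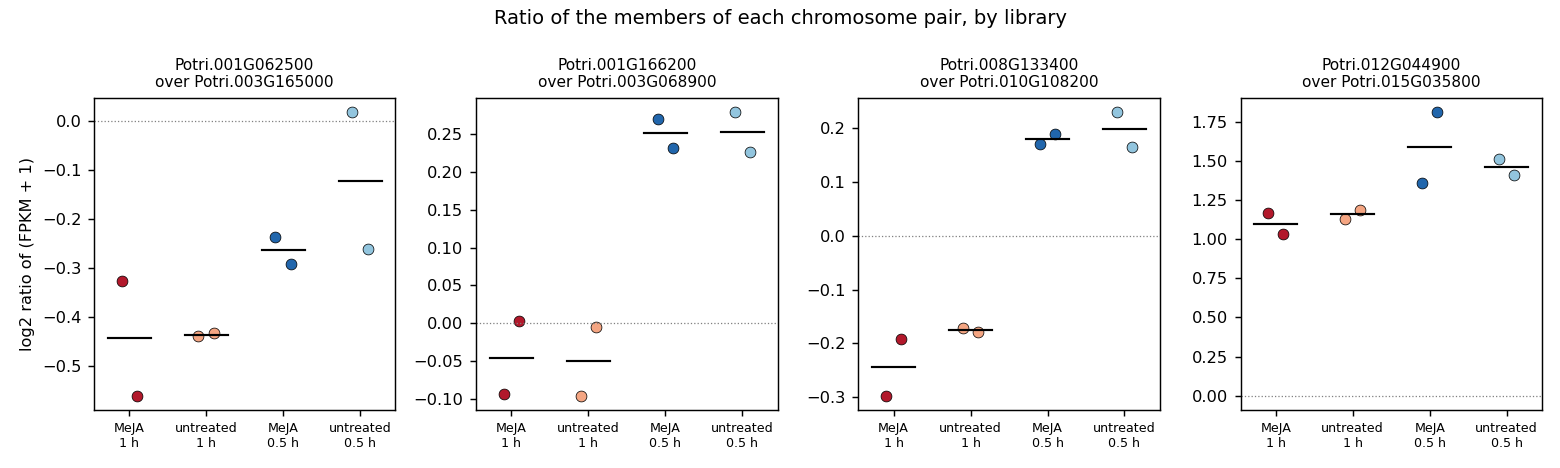
Log2 ratio of (FPKM + 1) between the loci of each chromosome pair (vertical axes) in the 4 groups (horizontal axes); points are libraries, bars are means of 2 and the dotted line marks equal levels. In each panel the 4 libraries of 1 h lie below the 4 of 0.5 h, and in the panel of Potri.008G133400 over Potri.010G108200 they lie on opposite sides of 0; a gap between the times was seen in 52.3% of all pairs of tested genes.

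No JAZ gene passed the test of MeJA against untreated cuttings, at either time or over both. In limma 0 of 10 members were called at 1 h, with 0 at an unadjusted p under 0.05. At 0.5 h 0 of 10 were called, with 1 at an unadjusted p under 0.05, and over both times the counts were 0 and 0. Among all tested genes 0% were called in each of these comparisons, and 5.93% at 1 h, 7.8% at 0.5 h and 3.66% over both times had an unadjusted p under 0.05. The 95% intervals of all 10 members lay between -0.42 and 0.50 at 1 h and between -0.37 and 0.72 at 0.5 h on the log2 scale, within a change of 2 times in either direction. Over both times the MeJA and untreated libraries overlapped for all 10 members, while 0.292% of all genes were higher and 0.366% lower with MeJA with no overlap.

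At 0.5 h, 9 of 10 members had a positive MeJA difference, with a median log2 difference of 0.15 against -0.03 for all tested genes. After quantile normalization these medians were 0.047 and -0.0061. The share of all genes with a positive difference was not computed. The members come from the same libraries and followed each other closely, so their signs are not separate observations. For 6 members both MeJA libraries were above both untreated libraries, and for 0 members they were below, while 13.8% of all genes were above and 22.6% below with no overlap. The 6 were Potri.001G062500, Potri.001G166200, Potri.003G068900, Potri.003G165000, Potri.006G139400 and Potri.011G083900, the same 6 that were the most abundant. The largest difference was that of Potri.003G165000, at 275 ± 0.45 FPKM with MeJA and 216 ± 51 FPKM without (SD, n = 2; log2 difference 0.37 ± 0.16 SE, limma adjusted p = 0.64).

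Untreated 0.5 h replicate 1 was the lowest of the 8 libraries for 8 of 10 members, and the share over all genes was not computed. Without that library the MeJA differences at 0.5 h had a median of 0.10 and a highest value of 0.12 (log2), and 7 of 10 remained positive. Without untreated 0.5 h replicate 2 instead, the median was 0.20 and the highest value 0.61, with 8 of 10 positive. After quantile normalization the difference of Potri.006G139400 at 0.5 h was -0.08, against 0.16 as deposited, so that its direction depended on the scaling.

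At 1 h the MeJA differences had a median of 0.04, against 0.01 for all tested genes, with 6 of 10 positive. The share of all genes with a positive difference was not computed here either. Both MeJA libraries were above both untreated libraries for 4 members and below for 0, while 20.3% of all genes were above and 15.7% below with no overlap. The 4 were Potri.008G133400, Potri.010G108200, Potri.012G044900 and Potri.015G035800, the 4 least abundant members. Potri.010G108200 had the largest difference, at 169 ± 15 FPKM with MeJA and 143 ± 1.4 FPKM without (SD, n = 2; log2 difference 0.24 ± 0.12 SE, limma adjusted p = 0.87). MeJA 1 h replicate 2 was the highest of the 8 libraries for 8 of 10 members, and the share over all genes was not computed. With each library left out the difference of Potri.010G108200 was 0.14 to 0.33, the lowest without MeJA 1 h replicate 2.

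**Figure D4:**
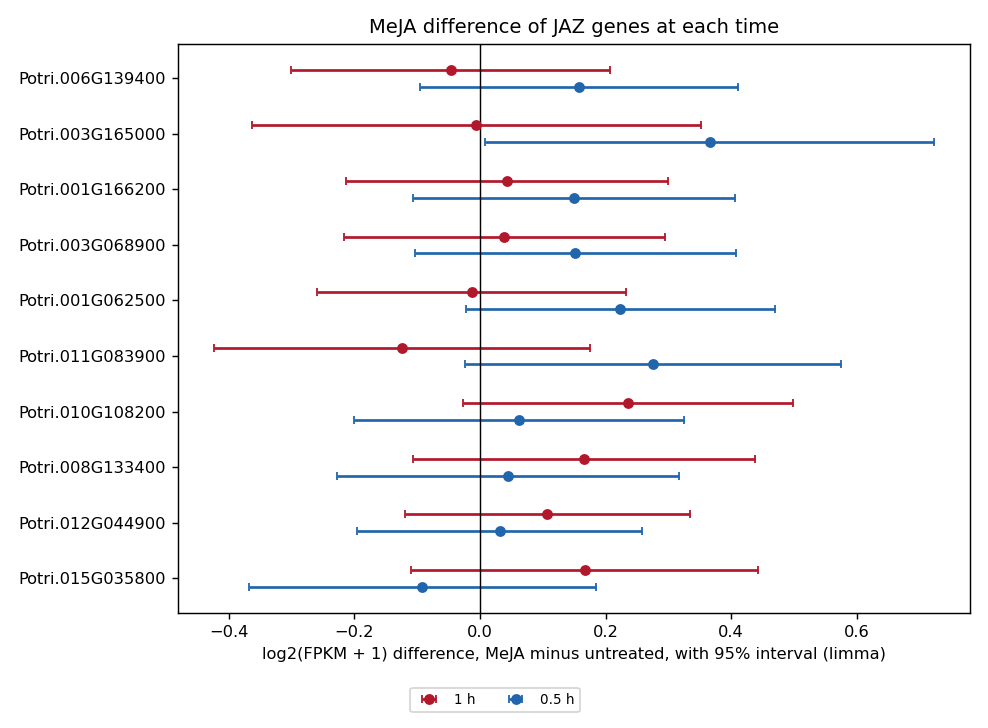
MeJA minus untreated difference of each JAZ locus on the log2(FPKM + 1) scale (horizontal axis, points with 95% limma intervals) at 1 h and at 0.5 h, with the loci ordered by mean level from the top. The points lie between -0.12 and 0.37, and the interval of Potri.003G165000 at 0.5 h, from 0.0076 to 0.72, is the only one that leaves out 0.

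The time change with MeJA minus that without was fitted as an interaction, and 0 of 10 members passed in limma (0 with an unadjusted p under 0.05; adjusted p from 0.56 to 0.92). Of all tested genes 0% were called and 9.32% had an unadjusted p under 0.05. The point estimates were negative for the 6 abundant members, whose estimated change was smaller with MeJA, and positive for the other 4. The interaction equals the MeJA difference at 1 h minus that at 0.5 h, so these signs restate those differences and are no separate observation. The share of all genes with a negative estimate was not computed. After quantile normalization the estimate was -0.0015 for Potri.006G139400 and -0.014 for Potri.001G166200, against -0.20 and -0.11 as deposited. For Potri.011G083900 the log2 change was 0.80 with MeJA and 1.2 without, a difference of -0.40 with a 95% interval of -0.82 to 0.02, and of -0.24 without untreated 0.5 h replicate 1. For Potri.015G035800 it was 1.35 with MeJA and 1.09 without, a difference of 0.26 with a 95% interval of -0.13 to 0.65, and of 0.072 without MeJA 0.5 h replicate 2 and 0.44 without MeJA 0.5 h replicate 1.

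Most isoforms of the JAZ genes rose with their gene. Of the 47 isoforms, 43 were called higher and 0 lower at 1 h over both treatments (limma, adjusted over 47164 transcripts), against 16.8% called higher and 38.4% lower among all transcripts. Within a treatment 40 were called higher with MeJA and 37 without, against 12.5% and 12.8% of all transcripts. The 4 that were not called all belonged to Potri.008G133400, which is listed with 12 isoforms of 5.37 to 26.3 FPKM. They were isoforms 3, 9, 11 and 12, with log2 changes of 0.18, 0.27, 0.21 and 0.06 (limma adjusted p = 0.079, 0.052, 0.056 and 0.65). Isoform levels are estimates, and how the authors divided reads among isoforms is not given in the sources used here.

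The isoforms of the abundant members moved by nearly the same amount. In Potri.003G165000 the 3 isoforms changed by 1.67 to 1.69 on the log2 scale, and in Potri.001G062500 the 2 isoforms by 1.43 to 1.44. The 4 isoforms of Potri.006G139400 changed by 0.50 to 0.58, those of Potri.001G166200 by 0.30 to 0.39, and the 2 of Potri.003G068900 by 0.66. Isoform 2 of Potri.001G062500 made up 71.2% ± 0.8 of the gene at 1 h and 71.4% ± 0.39 at 0.5 h (SD, n = 4). Isoform 1 of Potri.003G165000 made up 54.9% ± 0.74 at 1 h and 55.3% ± 1 at 0.5 h.

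In the members with many isoforms the changes covered a wider range, but a range also widens with the number of isoforms compared. These isoforms also had low values, from 3.27 FPKM in Potri.012G044900, where the log2(FPKM + 1) scale understates changes. Whether the spread differed beyond these limits was not tested. The 8 isoforms of Potri.010G108200 changed by 0.63 to 0.83, and the 10 of Potri.012G044900 by 0.60 to 0.91. The 12 isoforms of Potri.008G133400 changed by 0.06 to 0.57. Its isoform 6, the most abundant, made up 17.8% ± 1 of the gene at 1 h and 15.2% ± 0.78 at 0.5 h, and isoform 12 made up 11.5% ± 1 at 1 h and 14.2% ± 0.87 at 0.5 h. These were the largest shifts in isoform share among the members (limma on log2 odds, adjusted p = 0.33 for isoform 6 and 0.24 for isoform 12) and were named after their values were seen.

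No isoform share passed the test. Of 29 isoforms of 8 members with a mean share between 10% and 90%, 0 were called between the times in limma, 2 reached an unadjusted p under 0.05 (9.33% of all), and 0.105% of 24868 such isoforms of all genes were called. For MeJA over both times 0 of the 29 were called in limma and 1 reached an unadjusted p under 0.05, against 0% and 5.06% of all. For the level of isoforms, the MeJA comparison called 0 of 47 at 1 h, at 0.5 h and over both times in limma, with 2, 2 and 0 isoforms at an unadjusted p under 0.05. Among all transcripts 5.51%, 7.19% and 3.85% had such a p, so the members' share was not above the background. The 2 at 1 h were isoforms 2 and 6 of Potri.010G108200, and the 2 at 0.5 h were isoforms 2 and 3 of Potri.003G165000. Among all transcripts 0% were called higher at 1 h and over both times, and 0.00212% at 0.5 h.

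**Figure D5:**
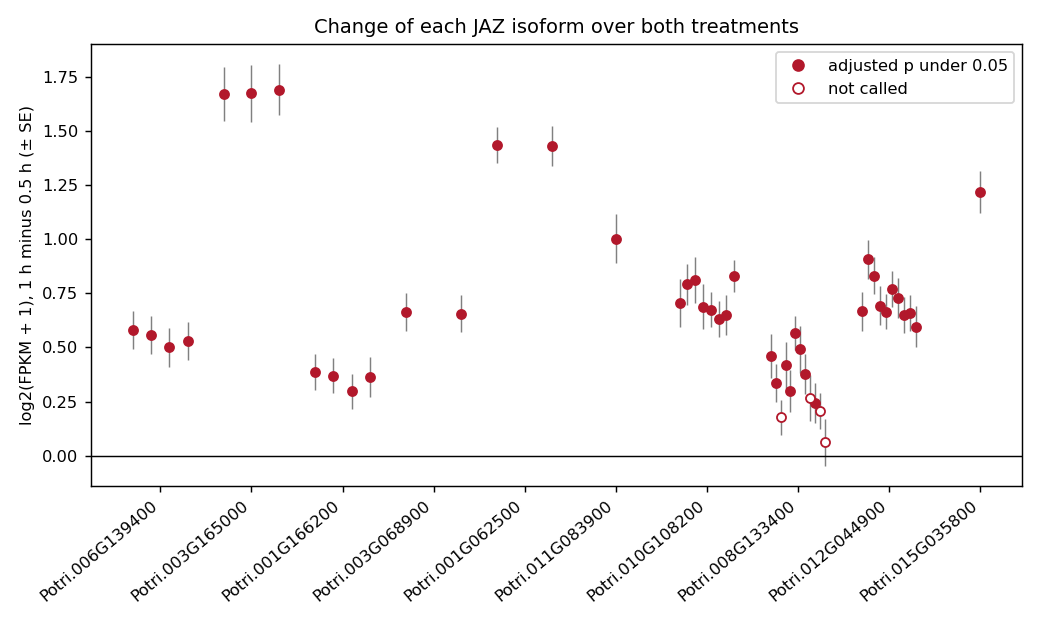
Change of each of the 47 JAZ isoforms between 0.5 h and 1 h over both treatments on the log2(FPKM + 1) scale (vertical axis, ± SE), grouped by gene on the horizontal axis and ordered by isoform number within a gene. The isoforms of Potri.003G165000 and Potri.001G062500 lie close together, those of Potri.008G133400 spread from 0.06 to 0.57, and the 4 open points, which were not called, all belong to Potri.008G133400.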

How the data were processed

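Libraries of poplar cuttings were grouped by the labels. Per transcript the authors deposited values taken to be FPKM, since neither headers nor labels name the unit and the values are not whole, not logged and sum to no fixed total. HISAT2 2.1.0 and Bowtie2 2.2.3 are named, without roles, per the submitters' processing notes; the quantification tool, annotation, build and strand setting were not given in the sources used here. The tables end within chromosome 17, and later identifiers were not analysed here. Gene descriptions and sequences were not used here, so the planned list of other jasmonate genes and the cell type markers were not run.

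Transcripts were summed per gene. Those reaching 1 FPKM in 2 or more libraries were fitted in limma 3.58.1 (R 4.3.3) as log2(FPKM + 1), with a variance trend and robust moderation, as 4 group means or as an additive model of treatment and time. Benjamini-Hochberg adjustment ran over all tested genes, with calls at 0.05. Isoform shares were fitted as log2 odds with a pseudocount of 0.5, for genes of at least 5 FPKM in each library. Pair ratios were tested by exact permutation of libraries, beside the share of all gene pairs whose ratio had no overlap between the times. The limma fit of gene sums was tested on simulated data with independent noise for each gene. The isoform share and pair ratio tests were not simulated. Alternatives were scaling, pseudocount, filter, moderation, a replicate block, the 2 groups alone and leaving out each library.

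The members and lists were chosen with earlier results of these data known. All members are named; other genes named are the 2 most and 2 least like the summed JAZ level across libraries.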

Additional observations from a re-analysis of the deposited data

How the results depend on the processing

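All 10 members kept a positive change between the times in each of the 3 time comparisons under every alternative run. The counts of called members stayed within 1.5 times of those reported for each alternative. The pair ratios were the exception, with 0 to 4 called with a library left out. Their p-values are then coarser, and the ratio of each pair still had no overlap between the times. Counts were 7 to 10 with MeJA, 8 to 10 without and 10 to 10 over both treatments when each library was left out, and isoforms called were 41 to 43. With median-centred transcripts, an alternative chosen after seeing the data, 46 isoforms were called. MeJA and interaction counts were 0 throughout, a side of the threshold that says nothing of stability. Same-numbered replicates showed no strong shared deviation between groups (correlations -0.12 to 0.033). These values cannot show whether such libraries were handled together. With the replicate block 9, 9 and 10 members were called with MeJA, without and over both. With the pairing crossed, chosen after seeing the data, the counts were 9, 9 and 10. No result of the MeJA comparisons was called, and 17 of their values changed sign. After quantile normalization Potri.006G139400 had -0.083 at 0.5 h and -0.084 over both times; the cause was not tested. With each library left out, the MeJA difference (log2) at 1 h was -0.036 to 0.0098 for Potri.001G062500, -0.048 to 0.13 for Potri.001G166200, -0.041 to 0.12 for Potri.003G068900, -0.15 to 0.13 for Potri.003G165000 and -0.15 to 0.055 for Potri.006G139400. At 0.5 h it was -0.046 to 0.14 for Potri.008G133400, -0.061 to 0.19 for Potri.010G108200, -0.041 to 0.10 for Potri.012G044900 and -0.28 to 0.094 for Potri.015G035800. Over both times it was -0.029 to 0.16 for Potri.011G083900 and -0.011 to 0.14 for Potri.015G035800, and the interaction was -0.024 to 0.27 for Potri.008G133400. Without read totals, the limit set by depth was not measured.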

Other observations

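Among 15394 tested genes of at least 5 FPKM on average that are not members, those whose level followed the summed JAZ level most closely over the 8 libraries were Potri.017G099900 (Pearson r = 0.999) and Potri.002G045800 (r = 0.997). Potri.017G099900 averaged 18.9 FPKM at 1 h and 12.2 FPKM at 0.5 h, and Potri.002G045800 averaged 21.6 FPKM at 1 h and 13.2 FPKM at 0.5 h. The most opposite were Potri.001G167100 (r = -0.997), at 39.8 FPKM at 1 h and 76.7 FPKM at 0.5 h, and Potri.012G089900 (r = -0.996), at 6.64 FPKM at 1 h and 15.5 FPKM at 0.5 h. The libraries form a cluster for each time, so these correlations mostly restate the change between the times, and 12.4% of the genes compared had an r over 0.9. The files give these genes no name.

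Each JAZ gene followed the sum of the other 9 with a Pearson r of 0.907 to 0.997 over the same 8 libraries, a description that shares the same split by time. Potri.008G133400 had the lowest value and Potri.003G165000 the highest.

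Within MeJA 1 h, untreated 0.5 h and MeJA 0.5 h, the replicates also differed in the same direction for most members. The share of all genes with such a direction was not computed. In MeJA 1 h, replicate 2 was the higher for 8 of 10 members, with a median gap of 0.13 on the log2 scale against -0.01 for all tested genes. In untreated 0.5 h, replicate 2 was the higher for 8 of 10 members, with a median gap of 0.17 against -0.01 for all tested genes. In MeJA 0.5 h, replicate 2 was the higher for 1 of 10, with a median gap of -0.05 against -0.0074 for all tested genes. In untreated 1 h replicate 2 was the higher for 7 of 10, with a median gap of 0.0099 against -0.035. The gaps there ran from -0.23 to 0.086, with no clear common direction.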
